A study of Rattus norvegicus with 107 samples.

Results

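The subunits of the GABA, glycine, glutamate and acetylcholine receptors, with the chloride cotransporters that set the chloride gradient, were followed in developing rat brain, and in colon for contrast. Members were every probe whose annotated symbol began with Gabr, Gabbr, Gria, Grin1, Grin2, Grin3, Grik, Grm, Glra, Glrb, Chrn or Chrm, with Slc12a2 and Slc12a5. This gave 63 of the 22523 probes on the array, for 62 genes, since Grik5 had 2 probes. Some genes of these families were not analysed here, among them Slc12a2, the cotransporter that carries chloride into cells.

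The samples were brain (54) and colon (53) from untreated Sprague Dawley rat pups at 9 ages, embryonic day 21 (E21) and postnatal days (PND) 1, 2, 3, 5, 7, 10, 15 and 22. Each tissue had 6 samples at each age except colon at E21, which had 5. The E21 pups came from 1 dam by Caesarean section and the litters were made equal in size by removing or adding pups, so the E21 samples share a litter and the litter of a later pup is not given. A small weighed piece of each tissue was used, and which part of the brain it came from is not given sample by sample. RNA was hybridised to Illumina bead arrays, 1 array a sample, and levels are given as normalized signal, a linear brightness without a unit that can be compared between samples for 1 probe but not between probes.

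As background, GABA and glycine open chloride channels, and the direction of the resulting current follows the chloride gradient. The cotransporter KCC2 (Slc12a5) carries chloride out and so lowers the chloride level inside neurons as they mature. Glutamate acts on the AMPA, kainate and NMDA ion channels and on the G protein coupled metabotropic receptors. NMDA receptors pair the obligatory GluN1 subunit with GluN2 subunits, of which GluN2B is the early forebrain form and GluN2A and GluN2C are later forms, GluN2C mostly in the cerebellum. Fetal glycine receptors contain the α2 subunit and adult ones of the spinal cord and brainstem contain α1. Acetylcholine acts on nicotinic channels and on muscarinic receptors, in the gut largely on enteric neurons and smooth muscle.

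The tissues carried the markers of their labels. The summed signal of 6 intestinal epithelium probes was 406.4 to 783.2 over the brain samples of PND 15 and was 39440 to 46530 over the colon samples of that age. Between 9617 and 12016 probes were detected in a brain sample and between 10276 and 12277 in a colon sample, where detected means a detection p under 0.05. Of the 63 members, 22 were detected in all 54 brain samples, 34 in some and 7 in none, and in colon 3 were detected in all samples, 50 in some and 10 in none. A fold against an age at which no sample detected the probe is given as "at least", with the lowest detected signal of each array, 66.31 to 76.87 in brain, in place of a lower value. Colon E21 replicate 4 stood apart: its Gria2 signal was 1022, against 99.21 to 120.4 in the other 4 colon samples of E21, its Slc12a5 signal 533.6, against 68.84 to 93.78, and its signal for the neuronal gene Snap25 was 1174. Counts of colon members over the ages and at PND 22 against PND 1 are therefore given without this sample too. Brain PND 15 replicate 6 had a summed signal of 7 cerebellar marker probes of 2253, against 5400 to 6498 in the other 5 brain samples of that age. Its summed signal of smooth muscle marker probes was 320.2, against 229.3 to 243.7 in the other 5.

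The question put to brain was which subunits changed over the first 3 postnatal weeks and when. Over the 9 ages 30 of 63 members (47.6%) passed the F test of limma at a Benjamini-Hochberg adjusted p under 0.01, beside 35.4% of all probes tested. At PND 22 against PND 1, 19 members were higher, beside 12.4% of all probes, and 5 were lower, beside 14.2%. Genes of all classes except kainate receptors were among those that rose, and Gabrd, Gabra6, Grin2c, Grin2a and Slc12a5 were among the larger rises. Glra2 was the only member that fell by over 1.5-fold. With arrays scaled to the 75th percentile 15 were higher and 4 lower, without Chrm1, Gabra4, Gria4, Grm8 and Grik5, whose differences were small. The median difference was 0.07 on the log2 scale over the members and -0.01 over all probes. Samples of PND 22 and of PND 1 did not overlap for 21 members, beside 22.3% of all probes. Since whole tissue was measured, more cells of a type and more RNA in each cell cannot be told apart. Markers of several cell types differed between the same ages: the summed signal of 8 neuronal marker probes was 24720 to 30150 at PND 22 and 16450 to 19350 at PND 1, with 4 probes higher and 2 lower, that of 5 astrocyte probes was 15350 to 18720 and 4720 to 5437, and that of 5 oligodendrocyte probes was 10680 to 14350 and 494.1 to 619.7. The sum of the cerebellar probes was 6025 to 8697 at PND 22 and 1591 to 2271 at PND 1, with 4 probes higher and 1 lower, and that of 4 choroid plexus probes was 2216 to 3271 and 3920 to 5348, with none higher and 1 lower. The part of these shifts in cell make-up in the results below was not tested.

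GABA-A receptors changed through a few members. Of 15 probes 4 were higher at PND 22 than at PND 1 and none was lower. Gabrd encodes the δ subunit of receptors outside the synapse, which carry tonic inhibition in cerebellar granule cells, thalamus and hippocampus. Its signal was 611.6, 668.0 and 729.5 at PND 22 (lowest, median and highest of 6) and 56.03, 70.66 and 76.81 at PND 1. Every PND 22 sample was far above every PND 1 sample, and 4 of the 6 samples of PND 1 detected the probe. The difference was 3.29 on the log2 scale (SE 0.10, adjusted p = 5.53e-34, limma), a 9.81-fold higher level. The means for PND 1, 7, 10, 15 and 22 were 68.9, 112, 171, 362 and 672, so that each interval after PND 7 added to it.

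Gabra6 encodes the α6 subunit, which is restricted largely to cerebellar granule cells. Its signal was 222.3, 288.5 and 364.4 at PND 22 and 45.20, 53.96 and 60.09 at PND 1, at which age no sample detected it. The level at PND 22 was at least 4.17-fold higher (measured difference 2.44 on the log2 scale, SE 0.14, adjusted p = 6.63e-22, limma). No brain sample detected Gabra6 before PND 10, when 3 of 6 did. At PND 15 replicate 6 again had a signal of 60.14, below detection, against 137.9 to 165.2 in the other 5 samples, and this was the sample with low cerebellar markers. In the same sample the Gabrd signal was 312.6, against 315.3 to 465.3 in the other 5, and the Grin2c signal was 187.1, against 170.2 to 214.0. No sample of PND 7 detected Gabra6 either, so at PND 15 the level was at least 1.90-fold that of PND 7. Without replicate 6 the measured step from PND 7 to PND 15 was 1.44 instead of 1.22, and that from PND 15 to PND 22 was 0.94 instead of 1.16 (log2).

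**Figure D1:**
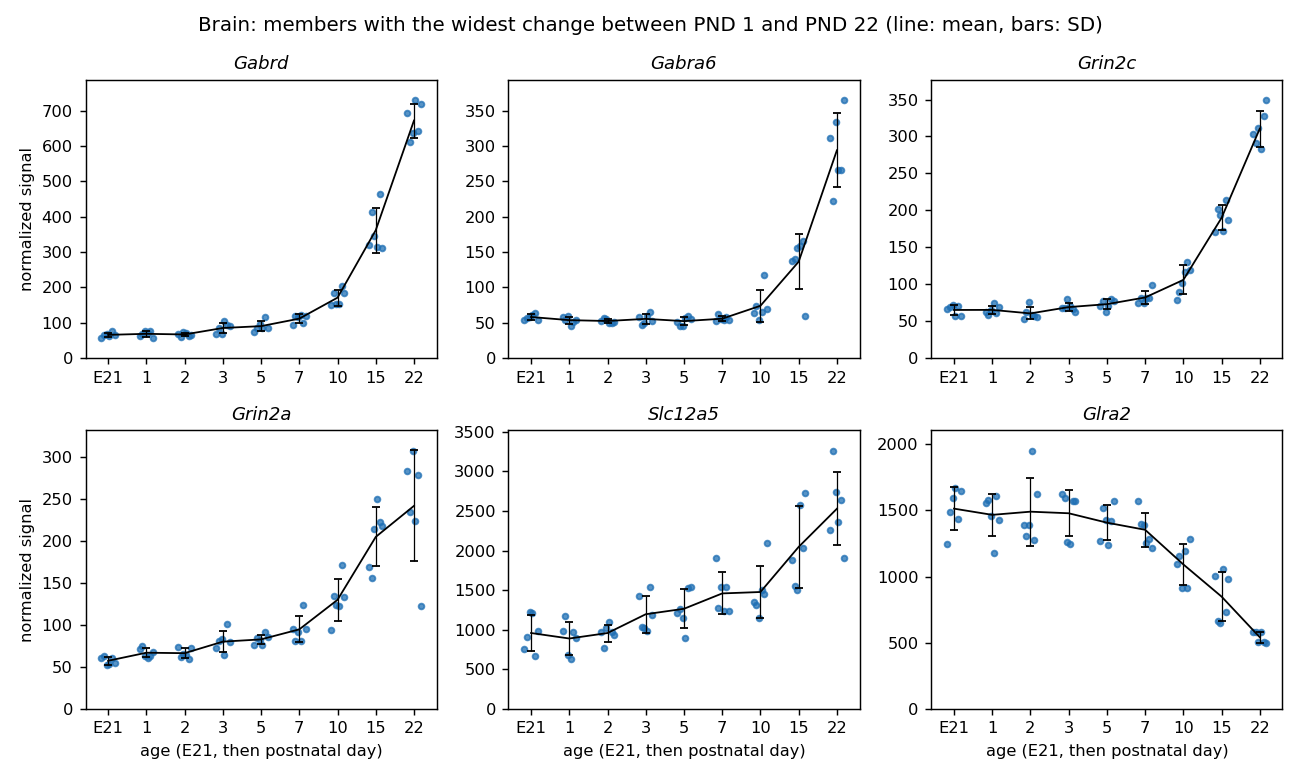
Normalized signal (y axis, linear, from 0) against age (x axis, E21 and then postnatal day) in brain for the 6 members with the widest difference between PND 22 and PND 1; points are the 6 samples of an age, the line joins the means and bars are the SD. Gabrd, Gabra6, Grin2c and Grin2a climb mainly after PND 7, Slc12a5 earlier as well, and Glra2 falls after PND 7, with 1 low Gabra6 sample at PND 15 (60.14) and 1 low Grin2a sample at PND 22 (123.0).

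The sequences just before the start sites of Gabrd and Gabra6, GABA-A subunits that both rose after PND 7, differ in composition, and are shown for that reason with those of Slc12a5 and of Glra2, which fell. They are the 250 bases before the annotated start in RefSeq (build GRCr8), 5′ to 3′ on the strand of the gene: Gabrd at chr5:171252710-171252959 (minus strand), Gabra6 at chr10:27327235-27327484 (minus strand), Slc12a5 at chr3:174115583-174115832 (plus strand) and Glra2 at chrX:32651937-32652186 (plus strand). Capitals mark matches on either strand to the GC box letters GGGCGG, the TATA box letters TATAAA or the letters TTGGC that nuclear factor 1 recognizes.
Gabrd: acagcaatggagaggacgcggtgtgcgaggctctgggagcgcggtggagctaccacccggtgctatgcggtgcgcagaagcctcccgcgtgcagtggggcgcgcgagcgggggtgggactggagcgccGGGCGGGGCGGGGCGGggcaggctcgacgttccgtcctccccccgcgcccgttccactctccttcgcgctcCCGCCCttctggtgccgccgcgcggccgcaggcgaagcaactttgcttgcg
Gabra6: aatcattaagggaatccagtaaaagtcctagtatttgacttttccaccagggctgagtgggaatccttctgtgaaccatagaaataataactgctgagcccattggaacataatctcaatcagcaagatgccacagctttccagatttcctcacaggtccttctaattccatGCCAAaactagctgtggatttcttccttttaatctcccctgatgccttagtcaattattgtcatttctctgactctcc
Slc12a5: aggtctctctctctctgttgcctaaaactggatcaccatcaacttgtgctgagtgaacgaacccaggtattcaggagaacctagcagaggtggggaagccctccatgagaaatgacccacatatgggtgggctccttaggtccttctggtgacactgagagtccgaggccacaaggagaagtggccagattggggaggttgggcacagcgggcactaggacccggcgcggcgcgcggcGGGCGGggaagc
Glra2: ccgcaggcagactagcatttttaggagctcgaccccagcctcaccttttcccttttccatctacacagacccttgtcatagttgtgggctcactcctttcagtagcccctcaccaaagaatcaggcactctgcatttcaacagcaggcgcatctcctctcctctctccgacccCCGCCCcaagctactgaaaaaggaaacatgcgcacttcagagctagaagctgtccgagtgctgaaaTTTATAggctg
The Gabrd stretch held 74.0% G and C and 4 GC box matches, 3 of which overlap. The Gabra6 stretch held 41.2% G and C, no GC box match and 1 match to TTGGC, on the opposite strand. Slc12a5 had 1 GC box match, and Glra2 had 1 as well as the letters TATAAA on the opposite strand. Of 50 member genes with a sequence, 25 held GGGCGG, beside 30.5% of 33469 sequences of the same length, 21 held TTGGC, beside 40.3%, and 4 held TATAAA, beside 12.9%. The median G and C content was 59.0% in member sequences and 51.2% in all. The letters GCGGGGGCG (EGR factors) and CACGTG (E-box), also searched on both strands, were in none of the 4 stretches, in 2 member sequences each, and in 2.45% and 5.59% of all. These matches describe letters only.

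Gabrb1, the β1 subunit, was 1245, 1297 and 1399 at PND 22 and 438.8, 519.6 and 584.2 at PND 1, and the ages did not overlap. It was 2.56-fold higher (log2 difference 1.35, SE 0.10, adjusted p = 2.08e-18, limma). Gabra4 encodes the α4 subunit, a partner of δ in forebrain. It differed by 0.41 (log2, adjusted p = 9.12e-06) between ages, and was detected in all 6 samples of PND 22 and in 1 of PND 1. Gabra5, the α5 subunit of extrasynaptic receptors in hippocampus, had an intermediate maximum: its mean was 713, 1304 and 669 for PND 1, 7 and 22. The 6 samples of PND 7 lay between 984.2 and 1516, above all samples of PND 22 (607.8 to 764.0) and of PND 1 (619.8 to 788.3). Its step was 0.86 between PND 1 and PND 7 (adjusted p = 5.755e-08) and -0.64 for the last week, PND 15 to PND 22 (adjusted p = 9.55e-05), while PND 22 against PND 1 gave -0.09 (adjusted p = 0.634). Gabrg1, a γ subunit, passed over the 9 ages with its highest mean, 214, at PND 15. The β2 subunit Gabrb2 differed by 0.17 and the α3 subunit Gabra3 by 0.04 (log2), neither past the threshold.

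Of the GABA-B receptor, a dimer of 2 different subunits, Gabbr2 was 2087, 2413 and 2567 at PND 22 and 1087, 1238 and 1381 at PND 1, without overlap. It was 1.92-fold higher (log2 difference 0.94, SE 0.09, adjusted p = 7.20e-13, limma), and its mean was already 2550 at PND 10. Gabbr1, the subunit that binds GABA, differed by 0.30 on the log2 scale (adjusted p = 0.0453) and passed only over the 9 ages.

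Slc12a5 was 1911, 2499 and 3258 at PND 22 and 625.2, 932.8 and 1169 at PND 1. All PND 22 samples lay above all PND 1 samples although the 6 samples of each age were widely spread. The level was 2.87-fold higher (log2 difference 1.52, SE 0.16, adjusted p = 3.16e-12, limma). Mean levels for E21 and PND 1, 3, 7, 15 and 22 were 958, 888, 1195, 1458, 2046 and 2528. The step from PND 1 to PND 7, 0.73, passed the test.

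The glycine receptor probes moved in opposite directions. Glra2, the fetal α2 subunit, was 495.2, 542.4 and 581.3 at PND 22 and 1176, 1508 and 1609 at PND 1. The ages did not overlap, and the level was 2.70-fold lower at PND 22 (log2 difference -1.44, SE 0.11, adjusted p = 1.61e-17, limma). The fall came late, with means of 1354, 1092, 849 and 541 for PND 7, 10, 15 and 22, and the steps from PND 7 to PND 15 (-0.70) and from PND 15 to PND 22 (-0.62) passed. Glrb, the β subunit that anchors the receptor at synapses, was 155.4, 193.9 and 206.0 at PND 22 and 80.02, 89.65 and 120.5 at PND 1, a difference of 0.97 (log2, adjusted p = 3.91e-11). The adult α1 subunit Glra1 differed by 0.03 and Glra3 by -0.14. Both were near background: Glra1 was detected in 4 of 6 samples of PND 22 and 3 of 6 of PND 1, and Glra3 in no sample of either age.

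Among the NMDA receptor subunits, Grin1, Grin2a and Grin2c rose and none of the 6 fell. Grin2c was 282.4, 307.4 and 348.9 at PND 22 and 58.54, 63.88 and 74.69 at PND 1. No samples overlapped, and the level was 4.76-fold higher (log2 difference 2.25, SE 0.09, adjusted p = 4.94e-29, limma), with 1 of 6 samples of PND 1 detecting it. Grin2a was 123.0, 256.7 and 307.3 at PND 22 and 60.78, 65.45 and 74.41 at PND 1. The lowest sample of PND 22, replicate 6, was below the 224.1 to 307.3 of the other 5 and still above all of PND 1. The difference was 1.80 (SE 0.13, adjusted p = 7.79e-18, limma), a 3.48-fold higher level, and 1.98 without replicate 6. Only 2 of 6 samples of PND 1 detected Grin2a, so that these values are set against a signal close to background.

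Grin1, the obligatory subunit, was 1441, 1890 and 2087 at PND 22 and 696.5, 723.7 and 852.9 at PND 1, with no overlap. It was 2.47-fold higher (log2 difference 1.30, SE 0.09, adjusted p = 4.73e-19), and its step was 0.77 from PND 7 to PND 15. Grin2b was 126.3, 144.7 and 201.6 at PND 22 and 146.2, 149.8 and 200.9 at PND 1. These ranges overlapped and the difference was -0.08 (SE 0.15, limma), below the threshold. Over the 9 ages the Grin2b adjusted p was 0.023, and leaving out any 1 of 3 brain samples brought it to between 0.00487 and 0.00907. Grin2d, another early subunit, differed by 0.10 and Grin3b by -0.12 (log2), neither past the threshold.

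The question of subunit switches was put to ratios formed within each array. A factor common to all probes of an array cancels in such a ratio, but background signal does not. Of 14 ratios of a later to an earlier subunit drawn up for this purpose, 6 could be formed here, and 4 others were added after the data were seen. The 6 were themselves drawn up with earlier results of these data known. A change in a ratio shows that 2 probes changed unequally and not which transcript was more abundant. Each was tested with a two-sided exact permutation test of 6 samples against 6, without adjustment over the 10 ratios, for which 0.00216 is the smallest possible p. Grin2a over Grin2b had log2 ratios of -0.20 to 1.09 at PND 22 and of -1.57 to -0.97 at PND 1, a change of 1.88 (SE 0.21, exact permutation p = 0.00216), with Grin2a near background at PND 1. Grin2c over Grin2b changed by 2.33 (SE 0.11) and Grin2c over Grin2d by 2.16 (SE 0.12), each with the same exact permutation p, although only 2 of 6 samples of either age detected Grin2d. Grin2b and Grin2d did not pass the test between these ages, so the changes of these NMDA ratios mostly restate the rises of Grin2a and Grin2c. No early NMDA subunit was called lower. By age the mean log2 ratio of Grin2a over Grin2b was -1.25, -0.81, 0.30 and 0.63 for PND 1, 7, 15 and 22, and that of Grin2c over Grin2b was -1.28, -1.01, 0.21 and 1.05.

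Glra1 over Glra2 changed by 1.46 (exact permutation p = 0.00216), with a Glra2 probe that fell beside a partner that did not pass the test. Glra1 was near background, detected in 4 of 6 samples of PND 22 and 3 of 6 of PND 1, so this change mostly restates the fall of Glra2. The ratio of Glra3 to Glra2 bears on no switch, since no sample of either age detected Glra3 and its change, 1.29, restates the fall of Glra2. Likewise no sample of PND 1 detected Gria4, and the change of Gria2 over Gria4, 0.01 here and -0.35 with normexp background correction, gives no measure of a switch. Among the added ratios, Gabrd over Gabrg1 changed by 3.05 and Gabrb2 over Gabrb1 by -1.19 (exact permutation p = 0.00216 for each). Neither the added ratios nor those drawn up before were chosen blind to these data, so the p-values of all of them describe these values and do not test a switch. With PND 3 as the early age the change of Gabrb2 over Gabrb1 was -0.55 (exact permutation p = 0.0173), past the threshold no longer. Gabra4 over Gabra5 changed by 0.51 (exact permutation p = 0.0130) and Gabra4 over Gabra3 by 0.38 (exact permutation p = 0.00866), with Gabra3 detected in 1 of the 12 samples. From PND 3 the change of Gabra4 over Gabra5 was 0.72 and that of Gabra4 over Gabra3 was 0.22 (exact permutation p = 0.0173).

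**Figure D2:**
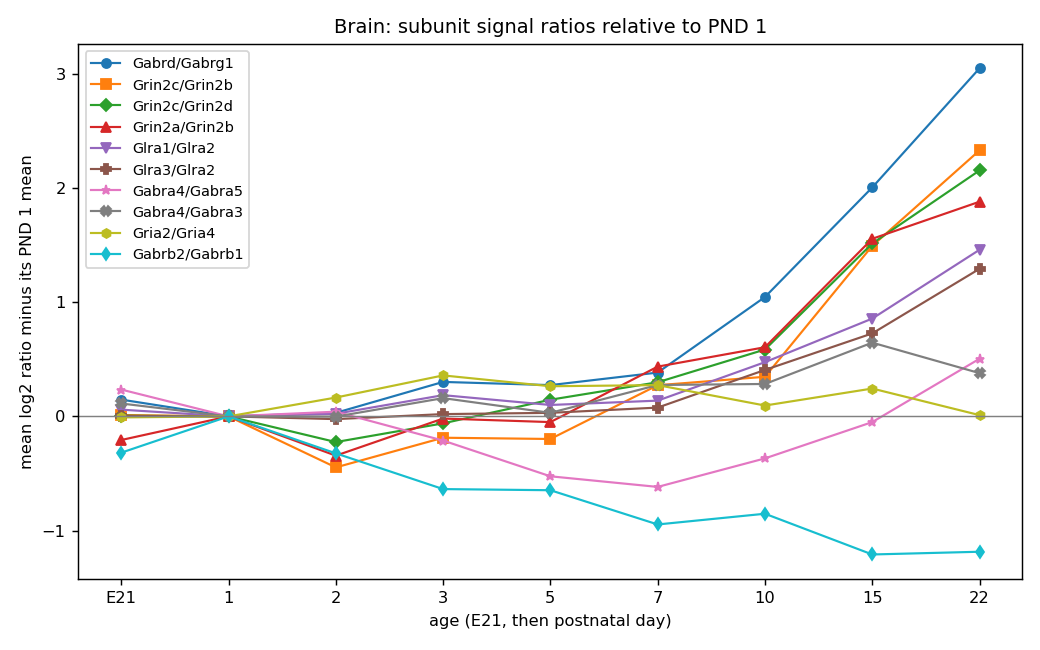
Mean log2 ratio of 2 subunit probes in brain, minus its mean at PND 1 (y axis), against age (x axis, E21 and then postnatal day); each line is 1 of the 10 ratios, over 6 samples an age. The NMDA ratios and Gabrd over Gabrg1 rise after PND 7 and Gabrb2 over Gabrb1 falls to -1.19. Glra3 and, at PND 1, Gria4 were detected in no sample.

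All 3 AMPA receptor probes rose. Gria3 was 223.6, 367.1 and 453.5 at PND 22 and 127.5, 153.6 and 157.2 at PND 1, a 2.38-fold higher level (log2 difference 1.25, SE 0.13, adjusted p = 1.09e-11, limma). Gria2, the subunit that makes the channel impermeable to calcium, was 3258, 3863 and 4563 at PND 22 and 2666, 2759 and 3191 at PND 1. The groups came close without overlapping, and the difference was 0.47 (SE 0.10, adjusted p = 7.89e-05, limma). Gria4 differed by 0.46 (adjusted p = 6.59e-05) and was at least 1.23-fold higher, since no sample of PND 1 detected it.

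Kainate receptors gave the only class with falls alone. Grik1 was 184.1, 197.9 and 209.7 at PND 22 and 254.5, 264.0 and 304.3 at PND 1, and Grik2 was 179.9, 197.5 and 222.5 at PND 22 and 243.7, 253.5 and 276.4 at PND 1. Neither pair of ages overlapped. The differences were -0.45 (SE 0.09, adjusted p = 2.59e-05) for Grik1 and -0.36 (SE 0.07, adjusted p = 5.51e-05) for Grik2 (limma). Grik1 was not lower throughout: its means for PND 1, 7 and 22 were 269, 374 and 196, with a step of -0.52 from PND 7 to PND 15. The brighter Grik5 probe, for a subunit that needs a partner to form a channel, was 426.7, 495.9 and 568.7 at PND 22 and 600.1, 628.3 and 696.2 at PND 1 (log2 difference -0.33, adjusted p = 0.00195), while its other probe stayed near background and differed by -0.06. Without brain PND 22 replicate 4 the Grik5 adjusted p was 0.0113. Probes for Grik3 and Grik4 were undetected in all samples of PND 22.

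Of 6 metabotropic glutamate receptor probes Grm4 and Grm8 rose. Grm8 was near background, with overlapping ages, and was detected in 3 of 6 samples of PND 22 and in none of PND 1 (at least 1.003-fold). Grm4, a presynaptic receptor with a strong site in cerebellum, was 100.2, 126.3 and 213.0 at PND 22 and 55.77, 62.39 and 67.90 at PND 1. It was undetected in all samples of PND 1, so the level was at least 1.89-fold higher (log2 difference 1.09, SE 0.12, adjusted p = 7.05e-11, limma). Grm5 and Grm7 had intermediate maxima. For PND 1, 10 and 22 the Grm5 means were 86.0, 117 and 90.9, and those of Grm7 were 125, 182 and 137. For both, PND 22 against PND 1 was below the threshold (adjusted p = 0.596 for Grm5 and 0.299 for Grm7), and both passed the step from PND 1 to PND 7.

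**Figure D3:**
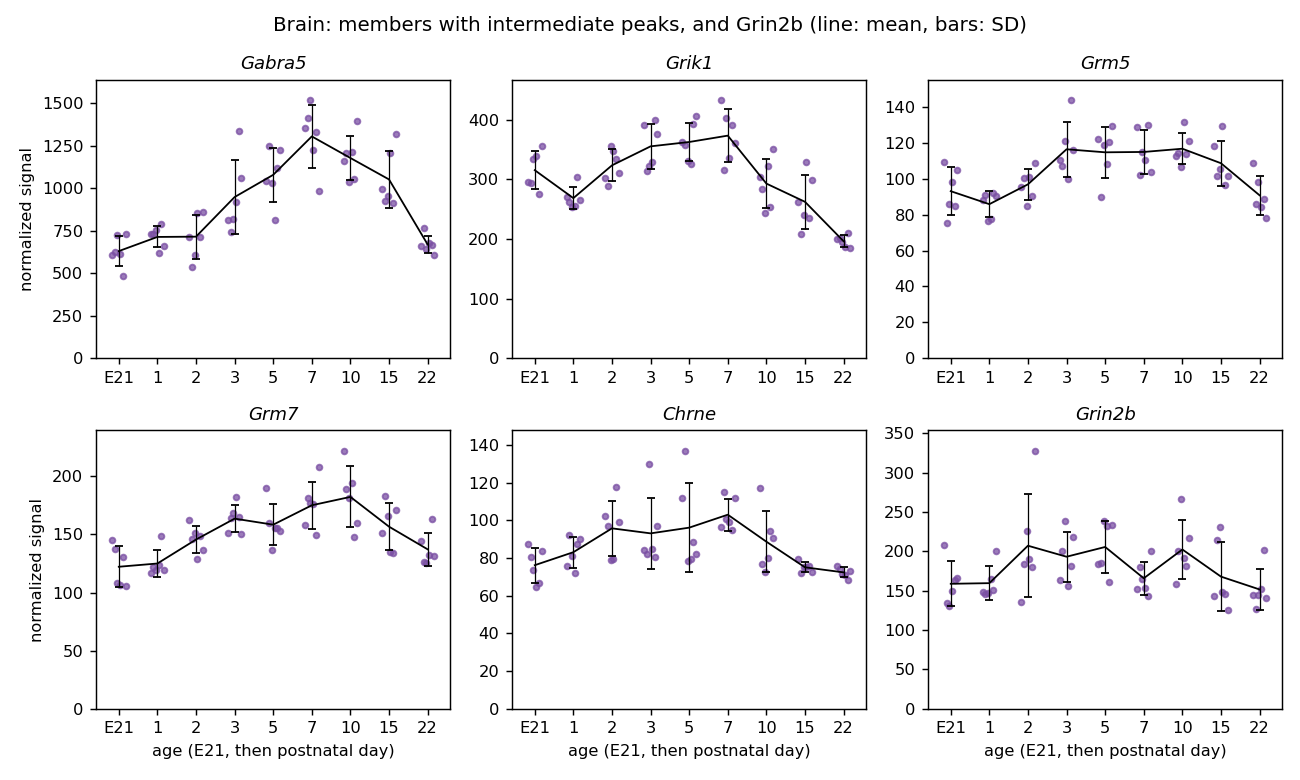
Normalized signal (y axis, linear, from 0) against age (x axis, E21 and then postnatal day) in brain for 5 members with an intermediate maximum and for Grin2b; points are the 6 samples of an age, the line joins the means and bars are the SD. Gabra5 and Grik1 peak at PND 7 (means 1304 and 374), Grm5 and Grm7 are highest at PND 10 (117 and 182), and the Grin2b samples of PND 22 and PND 1 overlap.

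Muscarinic probes rose for 3 of 5 genes. Chrm3, a receptor coupled to phospholipase C, was 669.4, 865.0 and 1008 at PND 22 and 342.8, 413.3 and 477.1 at PND 1, without overlap. The difference was 0.99 (SE 0.10, adjusted p = 1.22e-12, limma). Chrm4, an inhibitory receptor of striatum, differed by 0.66 (adjusted p = 9.10e-09), with 127.6 to 161.9 at PND 22 and 88.90 to 95.85 at PND 1. Chrm1 differed by 0.36, with overlapping samples.

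Of 15 nicotinic probes 1 was higher at PND 22 than at PND 1 in brain and 1 was lower. Chrna4, which forms the main brain receptor with β2, was 114.5, 129.9 and 166.3 at PND 22 and 64.94, 73.93 and 78.53 at PND 1 (log2 difference 0.87, SE 0.09, adjusted p = 1.32e-12, limma). Chrnb1, a subunit of the muscle receptor, differed by -0.30 with overlapping samples (adjusted p = 0.00266), and the adjusted p was 0.010 without brain PND 1 replicate 4 and 0.0112 without brain PND 22 replicate 5. Chrne, also a muscle subunit, had means of 83.1, 103 and 72.4 for PND 1, 7 and 22. Chrna3, Chrna5 and Chrnb4, whose genes lie side by side and serve ganglia and some brain nuclei, differed by 0.11 (SE 0.09), -0.09 (SE 0.15) and 0.06 (SE 0.08) in brain, below the threshold for each, and Chrna3 and Chrna5 were detected in all 54 brain samples.

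The 39 members outside these calls did not pass at PND 22 against PND 1 in brain, and their log2 differences lay between -0.19 (Chrne) and 0.48 (Grm2, a presynaptic autoreceptor, SE 0.20, adjusted p = 0.0637). The 7 that no brain sample detected were Chrna1, Chrnb3, Gabre, Gabrg3, Gabrq, Gabrr1 and Grm6, of which Chrna1 belongs to the muscle receptor, and Gabrr1 and Grm6 are best known from retina. For these a signal at background does not give a level. Chrna7, the subunit of a homomeric receptor with high calcium entry, was detected in 28 brain samples and differed by 0.09 (SE 0.07), and Chrnb2, the partner of Chrna4, was detected in 15 and differed by 0.01 (SE 0.08).

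The timing of these changes was read from 4 successive steps. At PND 1 against E21 no member was higher, beside 1.47% of all probes, and 1 was lower, beside 2.12% (Chrna3, -0.38). At PND 7 against PND 1, 17 members were higher, beside 6.34% of all probes, and none was lower, beside 6.97%. These included Slc12a5 (0.73), Gabrd (0.70), Grin2a (0.49) and Grin2c (0.33), as well as Gabra5, Grik1, Grm5 and Grm7, whose means were lower again by PND 22. Of these later falls those of Gabra5 and Grik1 passed a later step, and those of Grm5 and Grm7 passed none. At PND 15 against PND 7, 8 members were higher, beside 5.18%, and 4 were lower, beside 5.26%. Gabrd (1.69), Grin2c (1.21), Grin2a (1.11) and Grin1 (0.77) were among the rises, with Gabra6 (at least 1.90-fold), and Glra2 (-0.70), Grik1 (-0.52), Grik2 (-0.27) and Chrne were the falls. At PND 22 against PND 15, 4 members were higher, beside 1.90%, namely Gabra6 (1.16), Gabrd (0.91), Grin2c (0.71) and Grm4 (0.64), and 3 were lower, beside 1.33%, namely Gabra5 (-0.64), Glra2 (-0.62) and Grik1 (-0.40). Grin2a was thus past the threshold in the middle steps and not in the last.

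Lists of genes that serve these receptors were read beside them. Of 33 probes on the list of scaffold and auxiliary proteins 10 were higher in brain at PND 22 than at PND 1, beside 12.4% of all probes. Another 8 were lower, beside 14.2%. The AMPA auxiliary subunit Cacng3 was higher (649.4 and 232.8, 2.82-fold) and the kainate auxiliary subunit Neto2 lower (log2 difference -0.80). Nrgn, on this list but neither a scaffold nor an auxiliary subunit, was also higher (13120 and 1705, log2 difference 2.97). Of 12 probes for glutamate supply and uptake 5 were higher and 2 lower. The vesicular transporter Slc17a7 averaged 262.4 at PND 22 and 70.37 at PND 1 (1.88), while Slc17a6, the other vesicular transporter, averaged 1373 and 2387 (-0.80). Of 8 probes for GABA and glycine supply 5 were higher, among them the synthetic enzyme Gad1 (2866 and 1779, 0.69), and 1 was lower, the transporter Slc6a13 (-0.99). Of 5 probes for acetylcholine supply 1 was higher, the choline transporter Slc5a7 (0.52), and none was lower. Among 10 probes for other chloride transport genes the kinase Stk39 (0.34) was higher and the kinase Oxsr1 (-0.39) was lower, and both act on chloride cotransporters. In colon the same lists gave 4 higher and 2 lower, 2 and 1, 1 and 2, 1 and 2, and 4 and 2, in that order, beside 12.1% of all probes higher and 14.7% lower.

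Brain and colon were compared with the same probes. At PND 22, 32 members were higher in brain than in colon, beside 19.0% of all probes, and 2 were lower, beside 19.3%. The 2 that were lower were Chrnb1 (-0.68) and Chrna3 (-0.41). The Chrna3 call was lost when any 1 of 5 samples was left out, and without colon PND 22 replicate 2 the difference was -0.22 (adjusted p = 0.168). No colon sample of PND 22 detected 19 of the 32. Against the lowest detected signal, brain exceeded colon at least 34.2-fold for Gabbr2, 18.9-fold for Gabrb1, 9.68-fold for Gabrd, 9.63-fold for Gabra5 and 7.79-fold for Glra2. Gria2 and Slc12a5 were each detected in 1 of 6 colon samples of PND 22, and their differences were 5.85 and 5.40 on the log2 scale.

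The signed change from PND 1 to PND 22 in brain minus that in colon was above 0 for 23 members, beside 11.6% of all probes, and below 0 for 3, beside 11.1% (Glra2, Chrnb1 and Grik1). The sign does not say which tissue changed more: Glra2 changed by -1.44 in brain and -0.03 in colon, and Chrna5, among the 23, by -0.09 in brain and -1.04 in colon. With arrays scaled to the 75th percentile in place of quantile normalization these counts were 18 and 6. Gabrd differed by 3.16 between the tissues, Grin2c by 2.43, Gabra6 by 2.37 and Slc12a5 by 1.71 (log2, limma interaction, adjusted p at most 1.68e-07), with colon signals near background for these genes. Chrm3 was detected throughout in both tissues and moved in opposite directions, with a change of 0.99 in brain and -0.90 in colon, a difference of 1.88 (SE 0.15, adjusted p = 1.31e-20).

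**Figure D4:**
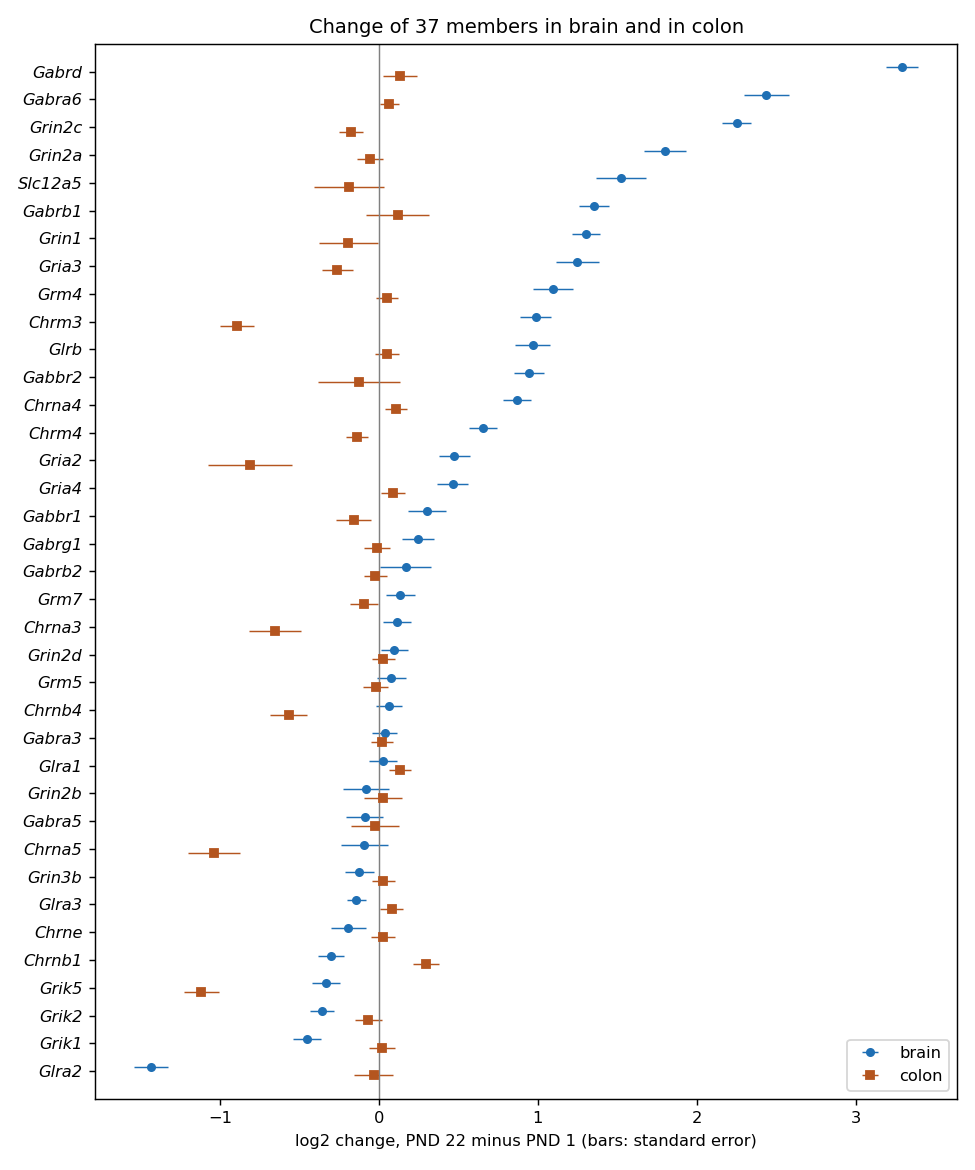
Log2 difference of PND 22 minus PND 1 (x axis) for the 37 members named by rule (y axis), ordered by the brain value; circles are brain, squares are colon and bars are the standard error of the fit. Brain values span 3.29 (Gabrd) to -1.44 (Glra2), while most colon values lie near 0, with Grik5 (-1.12), Chrna5 (-1.04), Chrm3 (-0.90), Gria2 (-0.81), Chrna3 (-0.65) and Chrnb4 (-0.57) further below it; the value of Gria2 did not pass the threshold.

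In colon 11 members passed over the 9 ages, beside 36.7% of all probes. Without colon E21 replicate 4 the number was 13, Grin1 and Gabrr3 being added, and with 75th percentile scaling of all samples it was 18. The 36.7% belongs to the main fit, and the share of all probes was not worked out for these other fits. At PND 22 against PND 1, 1 member was higher, beside 12.1%, and 6 were lower, beside 14.7%, and 5 members (Chrm3, Chrna5, Gria2, Gria3 and Grik5) had no overlap between these ages, beside 19.2%. With 75th percentile scaling 2 were higher, Chrna4 being added (0.37), and 6 lower. Of the 6 that fell, 5 were cholinergic receptor subunits. In colon 45 of the 63 members were detected in a minority of the samples, and a fall from background cannot be seen. These were 15 of 15 GABA-A, 8 of 15 nicotinic and 2 of 5 muscarinic probes, with others. Chrna5, an accessory subunit of ganglionic receptors, was 62.81, 68.34 and 81.94 at PND 22 and 111.1, 143.8 and 162.6 at PND 1 (log2 difference -1.04, adjusted p = 7.35e-07, limma). Chrm3, the main receptor for contraction of gut muscle, was 173.5, 206.7 and 233.2 at PND 22 and 341.8, 369.3 and 490.0 at PND 1 (-0.90, adjusted p = 4.67e-10). Neither overlapped. Chrm2, the other muscarinic receptor of smooth muscle, was detected in no sample of PND 22 and was at least 1.17-fold lower (-0.53, adjusted p = 1.98e-05). Chrnb4 differed by -0.57 (adjusted p = 5.40e-05). Grik5, the kainate subunit, was 61.17, 85.77 and 104.8 at PND 22 and 145.6, 177.8 and 232.4 at PND 1 (-1.12, adjusted p = 2.70e-12). The single rise was Chrnb1 (0.29, adjusted p = 0.00325), which passed the threshold no longer without colon PND 1 replicate 4, colon PND 22 replicate 3 or colon PND 22 replicate 5 (adjusted p up to 0.0267).

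Chrna3, the ligand-binding subunit of ganglionic nicotinic receptors, climbed before it fell. The colon means for PND 1, 7, 10, 15 and 22 were 217, 322, 446, 607 and 146. The step was 0.89 from PND 7 to PND 15 (adjusted p = 1.37e-04), the only member called higher at that step, beside 1.51% of all probes. At PND 22 the signal was 88.01, 129.2 and 270.4 and at PND 15 it was 390.0, 610.9 and 864.7, without overlap, a difference of -2.11 (adjusted p = 6.54e-15, limma). At PND 22 against PND 15, 9 members were lower in colon, beside 9.27% of all probes, and none was higher, beside 9.13%. The other 8 were Gria2 (-1.38), Grik5 (-0.75), Grin1 (-0.62), Chrnb4 (-0.58), Chrm3 (-0.55), Chrm4 (-0.54), Chrm2 (-0.49) and Gabbr1 (-0.41). The summed signal of 3 enteric neuron probes (Prph, Uchl1 and Ret, all 3 called lower at PND 22 than at PND 1) was 362.8 to 993.9 at PND 22, against 2420 to 3524 at PND 15, and 1222 to 2046 at PND 1. That of 3 smooth muscle probes was 3245 to 18600 at PND 22, against 11490 to 17560 at PND 15. The 18600 belongs to replicate 2 alone, and the other 5 samples of PND 22, at 3245 to 9657, lay below every sample of PND 15. The part of these shifts in the falls was not tested.

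Leaving out colon E21 replicate 4 raised the number of members lower at PND 22 than at PND 1 to 8. Gria2 (-0.81, adjusted p = 1.19e-07, and 0.0128 with the sample) and Gria3 (-0.26, adjusted p = 0.00567) were added, with the same differences as before. With all samples kept, the Gria2 fall also passed with normexp background correction (-1.43, adjusted p = 5.89e-04), normalization within colon (0.00811), the deposited normalized table (0.00806) and detected probes only (0.00761). With it Chrm3 was the 1 member lower at PND 1 than at E21, beside 2.00% of all probes (-0.44, adjusted p = 0.00733), and without it the difference was -0.35 (adjusted p = 0.0486).

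**Figure D5:**
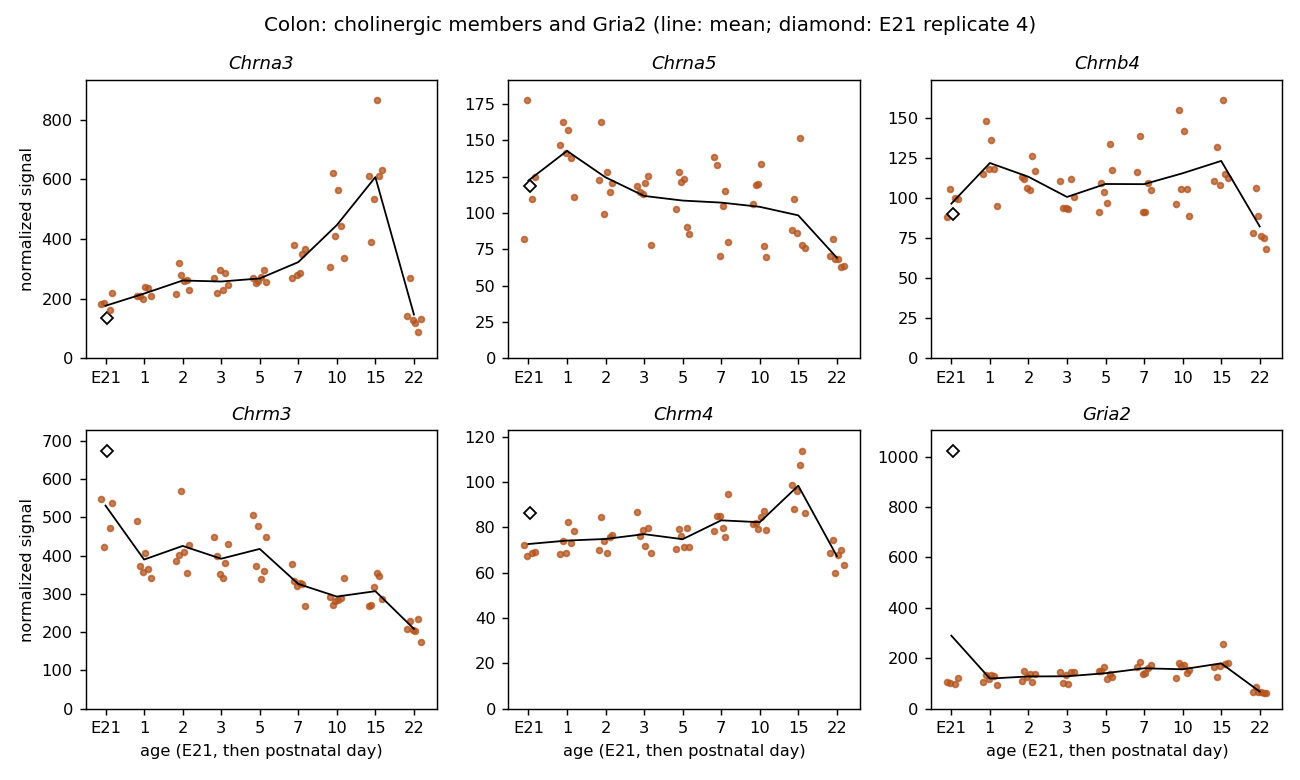
Normalized signal (y axis, linear, from 0) against age (x axis, E21 and then postnatal day) in colon for 5 cholinergic members and Gria2; points are samples (5 at E21 and 6 later), the line joins the means and the open diamond is colon E21 replicate 4. Chrna3 climbs to a mean of 607 at PND 15 and is 146 at PND 22, and the diamond stands at 1022 for Gria2.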

How the data were processed

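Total RNA of 54 brain and 53 colon samples was amplified, labelled and hybridised to Illumina RatRef-12 bead arrays. Colon E21 replicate 1 was left out as an outlier by the study and was not analysed here. The authors deposited, for each array, a linear bead signal (intensity) and a detection p-value per probe, and a table of quantile-normalized intensity made in GeneSpring GX, which served only as an alternative. Per the labels, brain was the right hemisphere.

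The deposited intensity values were quantile normalized over all 107 arrays, floored at 1, put on the log2 scale and fitted with limma 3.58.1 in R 4.3.3 with 1 mean for each age, brain and colon apart, and together for comparisons of the tissues. P-values were adjusted by Benjamini-Hochberg over 22523 probes, and a call needed an adjusted p under 0.01. A probe was detected at a p under 0.05. Bounds used the lowest detected signal of each array. Ratios were tested by exact permutation (scipy 1.17.1). Fits were tested on simulated data. Replicates are separate samples of an age, and nothing says that they came from separate litters, so p-values measure the spread between these samples only. The number of arrays limits the precision.

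Probes carried their gene from the platform annotation: 13793 of 22523 had 1 symbol and 8730 had none. Some genes of these families are not reported here. All 63 members matched a gene of RefSeq GRCr8 by gene ID. The members, gene lists and ratios were chosen with earlier results of these data known. The lists were scaffold and auxiliary proteins, GABA and glycine supply, glutamate supply, acetylcholine supply, other chloride transport, and cell type markers. Named members (37) were those of the ratios, the 2 largest rises and falls of each class and the 10 largest overall in brain among called probes that each sample of the higher age detected, 5 that passed only over the ages, and the 5 largest rises and falls in colon. Further members were named after their values were seen. Alternatives were other background, scaling and floor settings, the deposited normalized table, a filter on detection, other moderation, a plain F test, other thresholds, PND 3 or E21 as the early age, a replicate block, and each sample left out in turn. Without E21, without colon E21 replicate 4, 4 ratios and a block within age were added after seeing the data.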

Additional observations from a re-analysis of the deposited data

Results flagged for a closer look

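In 6 of 86 groups of samples 1 sample stood apart from the rest, where chance alone flags about 5% of groups. In brain at PND 22, Grin2a was 123.0 in replicate 6, against 224.1 to 307.3 in the other 5. In brain at PND 1, replicate 5 had 852.9 for Grin1 (others 696.5 to 746.8), 304.3 for Grik1 (254.5 to 270.5) and 148.7 for Grm7 (116.6 to 123.7), and replicate 1 had 3191 for Gria2 (2666 to 2822) and 696.2 for Grik5 (600.1 to 632.2).

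For 22 of the 37 named members the change from PND 1 to PND 22 differed between brain and colon by the interaction test of limma, beside 22.7% of all probes. Many of the 37 were named for a large difference between these ages in brain or colon, so the choice itself favours a high count. The difference, brain change minus colon change on the log2 scale, was 3.16 for Gabrd, 2.43 for Grin2c, 2.37 for Gabra6, 1.88 for Chrm3, 1.86 for Grin2a, 1.71 for Slc12a5, 1.51 for Gria3, 1.496 for Grin1, 1.28 for Gria2, 1.24 for Gabrb1, 1.07 for Gabbr2 and 1.05 for Grm4. It was 0.95 for Chrna5, 0.92 for Glrb, 0.79 for Chrm4, 0.79 for Grik5, 0.77 for Chrna3, 0.76 for Chrna4 and 0.63 for Chrnb4. No colon sample of PND 1 or PND 22 detected Chrna4, Gabbr2, Gabra6, Gabrb1, Gabrd, Glra2, Glrb or Grm4, so that for these the colon part is background. The difference was below 0 for Glra2 (-1.40), Chrnb1 (-0.60) and Grik1 (-0.47).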

How the results depend on the processing

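Shares of all probes were worked out for the main fit only, so counts under an alternative have no such share beside them. In brain the counts of members higher (19) and lower (5) at PND 22 than at PND 1 moved by less than 1.5 times under every alternative run, except that 1 member stayed lower when at least 1.5-fold was also asked. That demand also gave 8 members called from PND 1 to PND 7 (17 without it), 7 from PND 7 to PND 15 (12), 0 from E21 to PND 1 (1, and 2 at a threshold of 0.05), 0 higher in colon (1) and 1 lower in brain than in colon (2). Scaling to the 75th percentile moved the median of all probes at PND 22 against PND 1 to 0.22 in colon and -0.07 in brain, and gave 18 colon members over the ages (11), 2 higher in colon (1) and 6 with a brain change below that in colon (3); the cause was not tested.

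Members below the threshold turned direction. Gabra3 was -0.036 with that scaling and -0.022 to 0.071 with 1 sample left out. Glra1 was -0.041 with that scaling, -0.17 from PND 3, -0.079 from E21 and -0.017 to 0.061 with 1 sample left out. From E21 Gabra5 was 0.10 and Grm5 -0.032, and from PND 3 Grm5 was -0.36, Grm7 -0.26 and Grin2d -0.047. Gria2 over Gria4 was -0.35 with normexp background correction and -0.35 from PND 3. Gabra4 over Gabra3 was 0.22 from PND 3 and 0.27 from E21, no longer past the threshold, Gabra4 over Gabra5 was 0.75 with normexp and 0.72 from PND 3, now past it, and Gabrb2 over Gabrb1 was -0.55 from PND 3, no longer past it.

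With 1 sample left out, the count called from E21 to PND 1 was 0 to 1, that higher in colon 0 to 1 and that lower in brain than in colon 1 to 2, Gabra4 over Gabra3 changed by 0.33 to 0.45, Gabra4 over Gabra5 by 0.44 to 0.61 and Gria2 over Gria4 by -0.074 to 0.071. The Grik5 call over the ages was lost in 34 of 54 such fits.

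With the replicate number as a block 29 members passed over the ages in brain (30 without), and 19 were higher and 5 lower at PND 22. The numbers did not pair samples of different ages, which came from different pups. Correlations were taken on what was left after the mean of each tissue and age was subtracted from each probe, not on the levels. Same-numbered samples of PND 22 and PND 1 then correlated at -0.12 to 0.23 in brain, and 1 of 6 did so best with its own number. Within an age, same-numbered brain and colon samples went together more often. At PND 22 they correlated at 0.06 to 0.24, 6 of 6 best with their own number. At PND 1 they correlated at 0.09 to 0.26, 5 of 6 best, but at E21 only 2 of 5. The main comparisons of the tissues treated these samples as independent. A block within age gave 24 members with a brain change above that in colon (23) and 33 higher in brain than in colon (32). Signal over background limits the rest: 35 of 63 members were detected in every brain sample of at least 1 age.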
